A study of Mus musculus with 6 samples.

Results

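The cytosolic ribosomal protein genes were followed in 3T3-L1 adipocytes with and without knockdown of RBMS1, an RNA-binding protein. Members were chosen by gene symbol alone, as the Rpl and Rps symbols followed by a number together with Rpsa, Rplp0, Rplp1 and Rplp2. Symbols with -ps, which mark most pseudogenes, the S6 kinases and the S19 binding protein were left out. By the annotation, 6 of the members chosen are processed pseudogenes all the same (Rpl37rt, Rps4l, Rps12l1, Rps12l2, Rps3a2 and Rps3a3), of which 1, Rpl37rt, was tested. The rule found 91 of the 45706 genes in the table, 38 of the small subunit and 53 of the large subunit. Of these, 82 had enough counts to be tested, 32 of the small and 50 of the large subunit.

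3T3-L1 is a mouse embryo fibroblast line that turns into fat cells when given a hormone cocktail, here IBMX, dexamethasone, insulin and rosiglitazone. The comparison was between 3 Scrambled control samples, whose genotype label is WT although they carried a scrambled shRNA, and 3 RBMS1 Knockdown samples with an Rbms1 shRNA. Both shRNAs came in by lentivirus followed by puromycin selection, and every sample was harvested on day 7 of differentiation. Each arm is thus a selected pool of 1 cell line, and the hairpin was present throughout differentiation, so an effect on differentiation and an effect in the mature adipocyte cannot be told apart. RNA was measured by stranded total RNA sequencing after depletion of ribosomal RNA.

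Ribosomal proteins assemble with ribosomal RNA into the small subunit, which decodes mRNA, and the large subunit, which forms the peptide bond. Their mRNAs are abundant and many begin with a terminal oligopyrimidine (TOP) tract, a run of C and U at the first transcribed bases through which the mTORC1 kinase, by way of LARP1, controls their translation and stability. In adipocytes, insulin is a strong activator of mTORC1.

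The first transcribed bases of members with such a tract are shown because the tract is the feature by which these mRNAs are known to be regulated together. The RefSeq promoter table (GRCm38.p6) held 66 of the 91 members. In the 30 bases from 10 before to 20 after the start, read on the strand of the gene only, 21 of those members (31.8%) had an unbroken run of at least 5 C or T that included the start base. The same was true of 11.8% of all 27025 genes in that table. Where a gene had several starts, the one with the longest run was used. The 4 tested members with such a run and the lowest fold changes are given first, followed by the 4 with the highest, and capitals mark the run.
Rpl38 (chr11:114668570-114668599, + strand): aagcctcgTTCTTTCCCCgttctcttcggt
Rpl28 (chr7:4792955-4792984, + strand): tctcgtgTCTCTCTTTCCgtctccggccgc
Rps27 (chr3:90213629-90213658, - strand): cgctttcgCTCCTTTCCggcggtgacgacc
Rpl7a (chr2:26910797-26910826, + strand): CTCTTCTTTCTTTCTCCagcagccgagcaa
Rpl31 (chr1:39367841-39367870, + strand): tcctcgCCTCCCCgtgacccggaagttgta
Rplp2 (chr7:141447641-141447670, + strand): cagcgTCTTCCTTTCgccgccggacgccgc
Rpl35a (chr16:33056472-33056501, + strand): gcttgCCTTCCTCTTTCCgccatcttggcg
Rpl39 (chrX:37085203-37085232, - strand): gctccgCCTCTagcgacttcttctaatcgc

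Members with and without such a run at the annotated start had similar medians, and a difference was not tested. The 20 tested members with a run had a median log2 fold change (knockdown over control) of -0.14, and the 42 without one had -0.16. Rpl28 with a tract of 11 bases and Rpl35a with 13 lay at opposite ends of the range. A match to these letters is a description of the annotated start and not a test of translational control. A member without a run here can still carry a tract where its annotated start is not the first transcribed base, so these medians do not compare members with and without a tract.

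Total counts ranged from 3142695 to 11073098 per sample. Control replicate 2 stood apart, with the lowest total and 43.0% of its counts on genes derived from ribosomal RNA, against 8.13% to 17.8% in the other 5 samples. Levels were therefore given as CPM, counts relative to the library total, after scaling by TMM, a factor computed from the bulk of genes. Rbms1 itself was 105 ± 7.10 CPM in the control and 64.8 ± 17.7 in the knockdown (mean ± SD, n = 3 each), with no overlap and a log2 fold change of -0.69, but edgeR's quasi-likelihood test gave a Benjamini-Hochberg adjusted p of 0.185. It passed the threshold of 0.1 only without knockdown replicate 3 (adjusted p = 0.0708 by the same edgeR test). Without any other sample the adjusted p was 0.155 to 0.454 by edgeR, and over all samples it was 0.108 by DESeq2. With library sizes alone the log2 fold change of Rbms1 was -0.31 (adjusted p = 0.572 by edgeR). The paper reports the knockdown of the protein by immunoblot. The labels give the cell type as fibroblast, whereas the adipocyte genes were abundant, with Adipoq, the hormone adiponectin, at 2307 ± 298 CPM in the control and 1948 ± 779 in the knockdown. Of 6 macrophage genes, Adgre1 and Ptprc had no count in any sample, and Cd68 was 0.688 to 2.48 CPM in the control and 1.76 to 3.27 in the knockdown.

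Ribosomal protein mRNA made up a small share of the counts in both groups. The 91 genes took 1.26%, 0.818% and 1.18% of all counts in control replicates 1 to 3 and 1.12%, 1.17% and 1.43% in knockdown replicates 1 to 3. The lowest share was that of control replicate 2, and the groups overlapped. Once the genes derived from ribosomal RNA were left out, the control samples lay at 1.46%, 1.44% and 1.44% and the knockdown samples at 1.24%, 1.40% and 1.55%. The control samples then lay close together, between the lowest and the highest knockdown sample. The ratio of the mean share (knockdown over control) was 1.14 over all counts and 0.904 when the 100 most abundant other genes were left out. In the latter case the samples were 2.27%, 2.37% and 2.28% in the control and 1.87%, 2.13% and 2.25% in the knockdown, with no overlap. The direction of the ratio depended on what it was measured against.

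On the TMM scale, the summed level was lower in every knockdown sample than in any control sample. In bulk RNA, fewer cells with a given level and less RNA per cell cannot be told apart. The sum was 12090, 12760 and 12160 CPM in the control and 9939, 10710 and 11610 CPM in the knockdown. The mean was 12340 ± 368 CPM in the control and 10750 ± 836 in the knockdown (SD, n = 3 each). The smallest p that exact permutation of 6 samples in these groups allows is 0.1, so no test was run on this sum. The large subunit genes summed to 7924 ± 313 CPM in the control and 6751 ± 499 in the knockdown, and the small subunit genes to 4411 ± 110 and 4002 ± 350 (SD, n = 3 each). The small subunit sums overlapped between the groups, since knockdown replicate 3 with 4310 CPM lay above control replicate 1 with 4284. The ratio of large to small subunit counts was 1.82, 1.85 and 1.72 in the control and 1.75, 1.63 and 1.69 in the knockdown, also with overlap. Unlike the fold changes, this ratio within a library does not depend on the scaling between libraries.

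**Figure D1:**
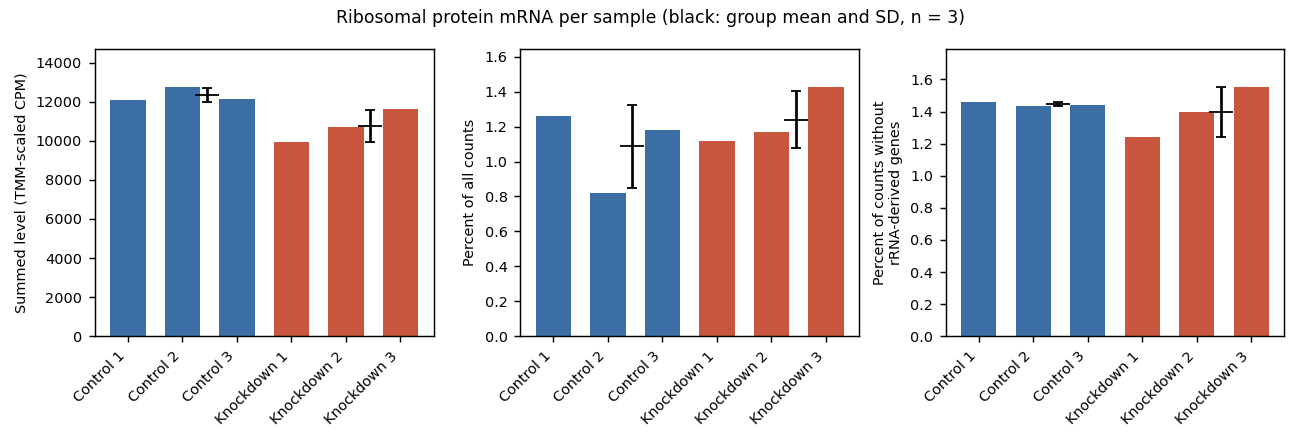
Ribosomal protein mRNA in each of the 6 samples, as the summed TMM-scaled CPM, as the percent of all counts and as the percent of counts without genes derived from ribosomal RNA. Bars are samples (blue control, red knockdown) and black marks give the mean and SD of each group of 3. The summed level does not overlap between groups, whereas both shares do, and control replicate 2 has the lowest share of all counts at 0.818%.

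Across the members, most lay slightly below 0. Of the 82 tested, 65 had a negative log2 fold change (79.3%, against 49.6% of all 11440 genes tested), and their median was -0.15 against 0.00437 over all genes. With library sizes alone in place of TMM, the median of all genes moved up by 0.37, the members' median was 0.22 and only 13 members lay below 0, so the direction holds relative to the other genes and not against the total count. The large subunit had a median of -0.24 with 40 of 50 members below 0, and the small subunit -0.13 with 25 of 32. These medians also turned positive with library sizes alone, at 0.16 and 0.26. With the trend in GC content and length removed, 33 of 50 large subunit and 16 of 32 small subunit members lay below 0. Without 1 sample at a time the large subunit median ranged from -0.29 to -0.18 and the small subunit median from -0.19 to -0.06, the latter without knockdown replicate 1. A difference between the subunits was not tested.

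Few members passed the test. By edgeR's quasi-likelihood test, 1 of the 82 was called lower and 0 higher at a Benjamini-Hochberg adjusted p of 0.1 or less, beside 1.22% of all genes called in either direction and 0.909% called lower. DESeq2 called 0 members higher as well. Over all genes, edgeR called 0.315% higher, and DESeq2 called 145 of the 13454 it tested higher. At an unadjusted p under 0.05, 15 members were lower and 0 higher, where 6.98% and 5.45% of all genes tested were, together 12.4%. This count moved with the scaling, to 0 lower and 1 higher with library sizes alone and to 9 lower and 2 higher with the trend in GC content and length removed. DESeq2 called 4 members lower, Rpl19, Rpl38 and Rps28 among them, against 2.12% of the genes it tested. On TMM-scaled CPM, every knockdown sample lay below every control sample in 22 members, and above in 1 member, Rplp2, against 9.55% and 8.96% of all genes. Of the 2850 tested genes in the shortest quartile by transcript length, 352 were lower and 156 higher in this way.

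**Figure D2:**
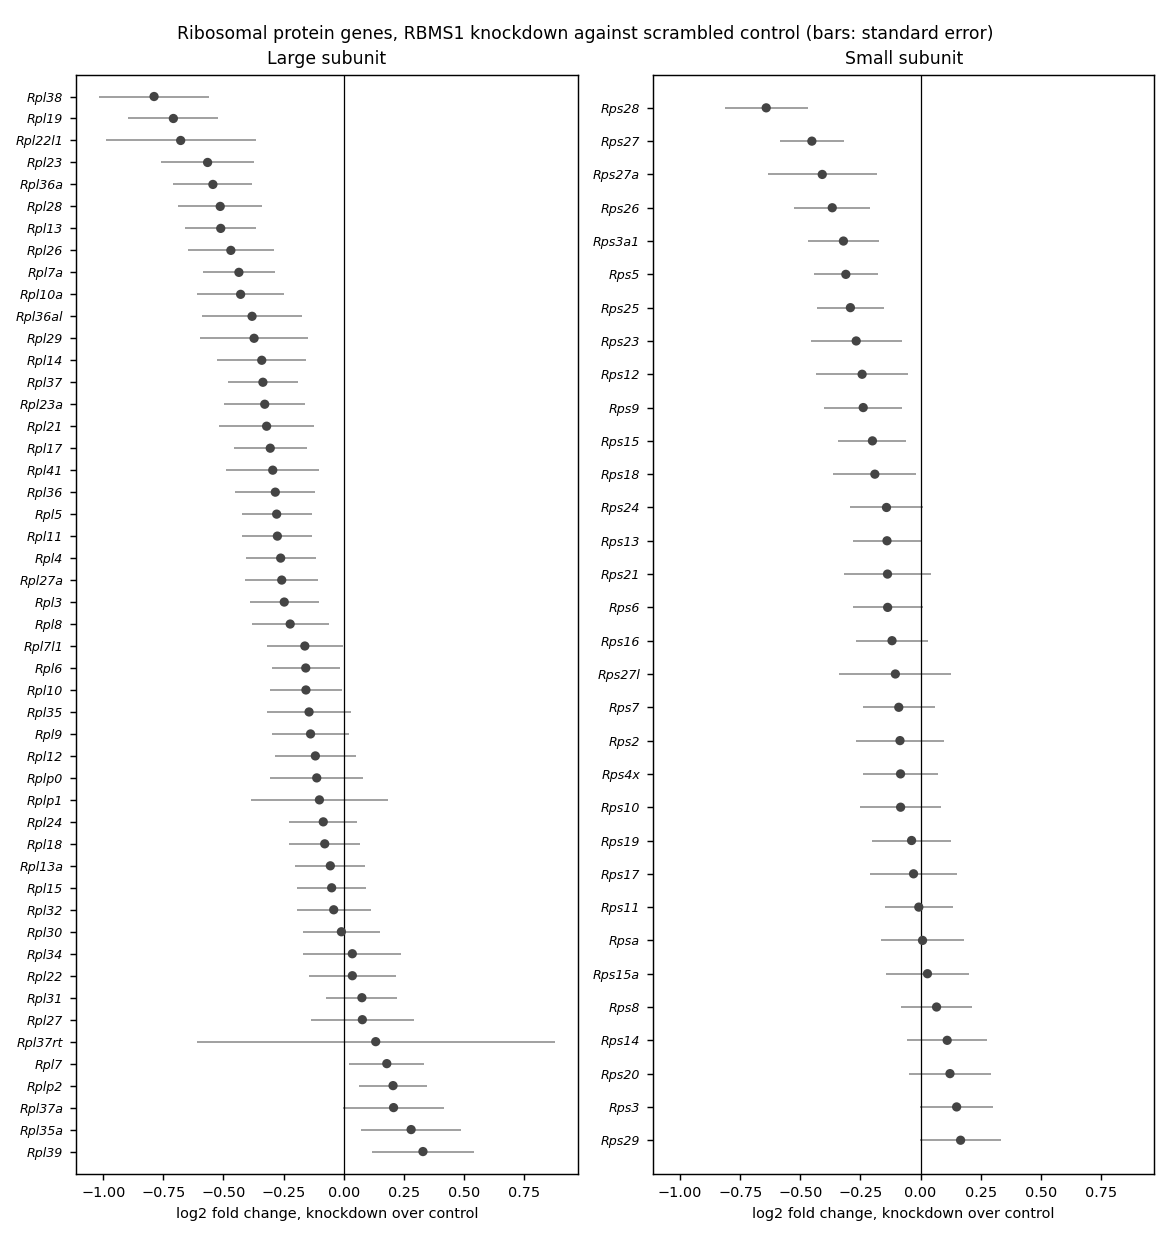
Log2 fold change (knockdown over control) of large and small subunit genes, on TMM scaling. Points are the estimates and bars their standard errors. Values run from -0.79 for Rpl38 to 0.33 for Rpl39, and most lie below 0, as did 65 of the 82 members tested, which became 13 with library sizes alone.

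Members were also set beside their genomic neighbours. Of 624 tested genes on chromosome 8, 562 lay below 0 and their median log2 fold change was -0.38, with 25 called lower by edgeR. Rpl13, a large subunit protein whose gene lies on this chromosome, was 170, 186 and 190 CPM in the control and 113, 128 and 142 CPM in the knockdown. The groups did not overlap, and the log2 fold change of -0.51 (SE 0.147) had an adjusted p of 0.180 by edgeR. With the median of each chromosome taken out, Rpl13 was at -0.12 (adjusted p = 0.846 by edgeR). Rps12l2, also on chromosome 8, had almost no counts.

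Fau encodes a small subunit protein under another name, as a fusion to a ubiquitin-like peptide. Its level was 207, 269.5 and 224 CPM in the control and 197, 172 and 188 CPM in the knockdown. All knockdown samples lay below all control samples. The gene lies on chromosome 19 and had a log2 fold change of -0.33 (adjusted p = 0.434 by edgeR).

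A further low stretch was the first 50 Mb of chromosome 3, where the median over 91 tested genes was -0.64 on the log2 scale. Rpl22l1, a paralog of Rpl22, lies in it. Its level was 18.4, 9.43 and 17.7 CPM in the control and 7.04, 12.6 and 9.25 CPM in the knockdown. The groups overlapped, with control replicate 2 as low as the knockdown samples, and the log2 fold change of -0.68 had an adjusted p of 0.416 by edgeR. It was -0.06 with the median of that stretch taken out. The tested members outside both stretches had a median log2 fold change of -0.14. That value is relative to the other genes, since the median of the whole set was 0.22 with library sizes alone.

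Of the other members with small p, Rpl19 of the large subunit was 233, 328 and 218 CPM in the control and 140, 166.5 and 170 CPM in the knockdown. Its log2 fold change was -0.71 (SE 0.188, adjusted p = 0.153 by edgeR). Control replicate 2 was far above the other control samples, and without it the log2 fold change was -0.51. Rps28, a small subunit protein near the mRNA exit channel, was 146, 162 and 132 CPM in the control and 74.8, 100.4 and 106 CPM in the knockdown. Its log2 fold change was -0.64 (SE 0.173, adjusted p = 0.158 by edgeR). The groups did not overlap, and knockdown replicate 1 was the lowest sample.

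Rpl38, a large subunit protein known for its role in translating Hox mRNAs in the embryo, had the lowest log2 fold change of all members, -0.79. It was 63.8, 115 and 76.6 CPM in the control and 40.2, 52.0 and 54.8 CPM in the knockdown. Control replicate 2 again stood highest, edgeR's adjusted p was 0.187, and the log2 fold change was -0.52 without that sample. Rps27, a small subunit protein, had the tightest groups among these members, 108, 103 and 102 CPM in the control and 73.0, 79.6 and 75.9 CPM in the knockdown. Its log2 fold change of -0.45 (SE 0.134) had an adjusted p of 0.198 by edgeR and was -0.46 without control replicate 2, but -0.24 with the trend in GC content and length removed, where Rps28 was at -0.39. Rpl36a and Rpl28, both of the large subunit, had log2 fold changes of -0.54 and -0.51, no overlap between groups, and edgeR adjusted p-values of 0.202 and 0.265. With library sizes alone, Rpl19, Rps28, Rpl38, Rps27, Rpl36a and Rpl28 lay between -0.34 and -0.08.

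No member above 0 came near the threshold. Rpl39, a very short protein of the large subunit that lines the exit tunnel, was 88.0, 81.9 and 125 CPM in the control and 113, 103 and 155 CPM in the knockdown. Control replicate 3 lay within the knockdown range, and the log2 fold change of 0.33 (SE 0.214) had an adjusted p of 0.575 by edgeR and was 0.14 without knockdown replicate 3. Rplp2, one of the acidic proteins of the stalk that recruits elongation factors, was 135, 128 and 148 CPM in the control and 153, 152 and 169 CPM in the knockdown. Its groups did not overlap, but the log2 fold change was only 0.21 with an adjusted p of 0.594 by edgeR, and 0.41 with the trend in GC content and length removed. Rpl35a, Rpl7, Rps29, Rpl37a, Rps3 and Rps20 followed with log2 fold changes of 0.28, 0.18, 0.17, 0.21, 0.15 and 0.12, and the groups overlapped in each. Without 1 sample at a time, Rpl35a ranged from 0.16 to 0.52, Rpl7 from 0.09 to 0.26, Rps29 from 0.08 to 0.29 and Rps3 from 0.07 to 0.24, and Rpl37a and Rps20 fell below 0, at -0.04 and -0.03, without knockdown replicate 3.

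**Figure D3:**
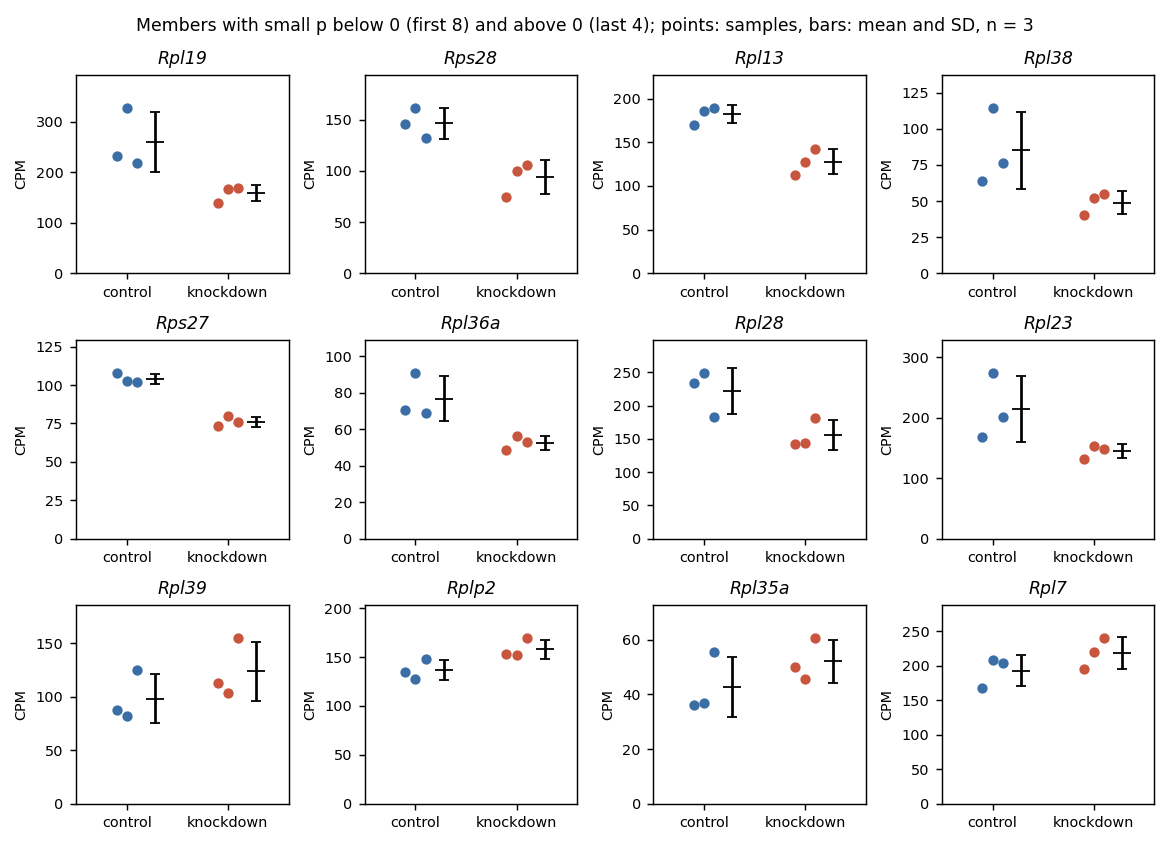
Level in CPM of 8 members below 0 with small p and of the 4 members above 0 with the smallest p, each axis starting at 0. Points are samples (blue control, red knockdown) and black marks the mean and SD of 3 samples. Groups do not overlap in the 8 below 0 or in Rplp2, they overlap in Rpl39, Rpl35a and Rpl7, and control replicate 2, the second blue point, is the highest in Rpl19, Rps28, Rpl38, Rpl36a, Rpl28 and Rpl23.

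The other stalk proteins showed no difference larger than their spread. Rplp0, the base of the stalk and often used as a reference gene, was 513, 351 and 406 CPM in the control and 365, 348 and 463 CPM in the knockdown. Rplp1 was 225, 115 and 119 CPM in the control and 112, 130 and 186 CPM in the knockdown. In both, control replicate 1 was high and the groups overlapped widely, with log2 fold changes of -0.11 and -0.10 and edgeR adjusted p-values of 0.863 and 0.924. Rpsa, a small subunit protein that is also known as the laminin receptor, had a log2 fold change of 0.01 (adjusted p = 0.990 by edgeR). Rps6, the small subunit protein phosphorylated by the S6 kinases, was 191, 223 and 209 CPM in the control and 191, 204 and 172 CPM in the knockdown. Its groups overlapped, with a log2 fold change of -0.14 and an adjusted p of 0.757 by edgeR.

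The members' median deviation from their own means did not overlap between the groups. On the log2 CPM scale of edgeR, which adds a small prior count, the median deviation over the tested members was 0.07, 0.13 and 0.11 in the control and -0.20, -0.09 and 0.01 in the knockdown. Knockdown replicate 3 was thus close to 0, and in it 42 members lay above their own mean, against 10 and 25 in knockdown replicates 1 and 2 and 51 to 63 in the control samples. Control replicate 2 had the widest spread among members, with an interquartile range of 0.443 against 0.191 to 0.245 in the other 5 samples. It also had the fewest member counts, 25716 against 69139 to 158109 in the others. The part of its depth and of its ribosomal RNA in these values was not tested, but without it the members' median was -0.17 and 8 members had an unadjusted p under 0.05 by edgeR, all lower, beside 5.01% of all genes lower.

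**Figure D4:**
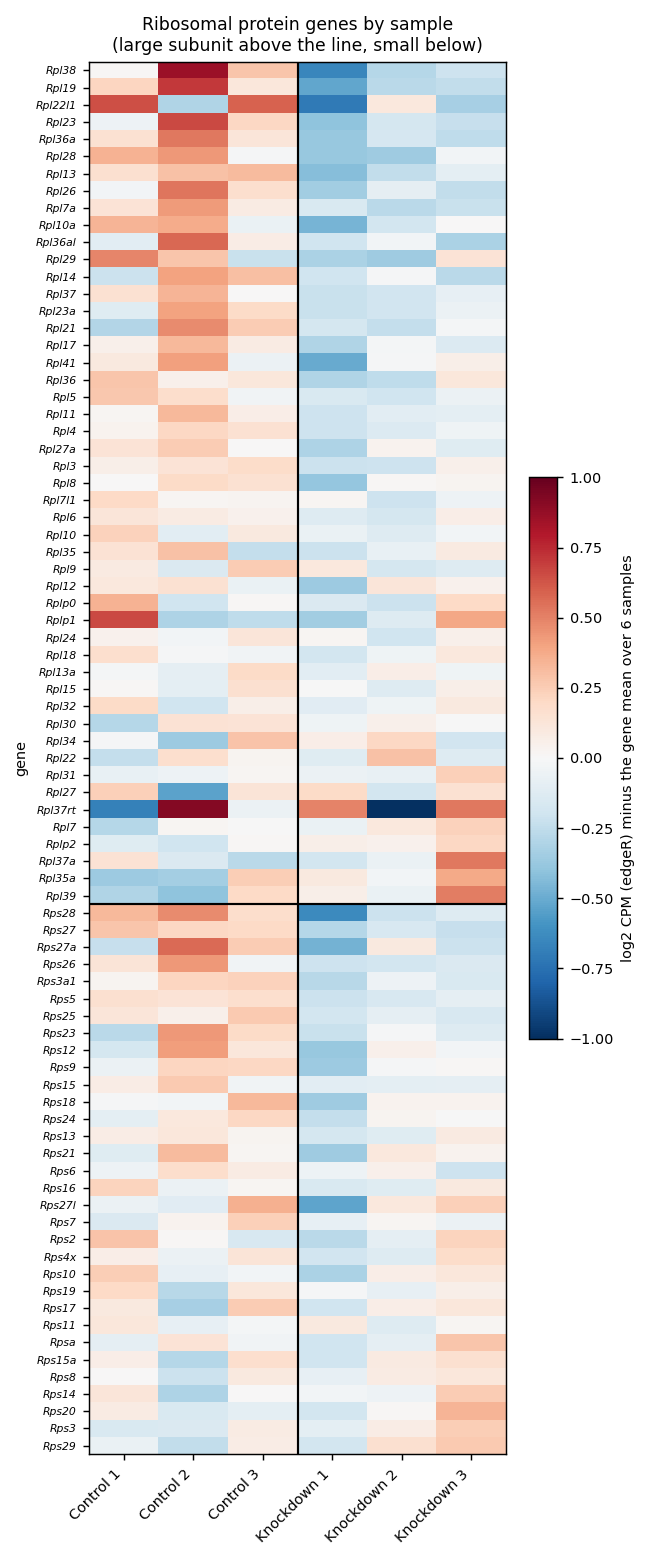
Deviation of edgeR's log2 CPM from each gene's mean over the 6 samples, for the tested members (rows, large subunit above the black line and small subunit below, each ordered by fold change) in the 6 samples (columns). Red is above and blue below the gene's mean, with the scale ending at 1 in both directions. Control replicate 2 has the strongest colours, knockdown replicate 1 is mostly blue, and knockdown replicate 3 has 42 members above their mean.

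The members are short genes, and short genes lay lower than long ones in general. The median transcript length was 680 bases for the members and 2797 for all annotated genes tested. Over all tested genes, the shortest quartile by transcript length had a median of -0.10 on the log2 scale with 60.4% below 0, and the longest quartile 0.04. When the trend with GC content and length was taken out by a smooth fit, the members' median was -0.06 with 49 of 82 below 0. It was -0.01 for the small subunit and -0.11 for the large subunit. Within the members, the log2 fold change ran with neither length (Spearman rho -0.05 over 82 members, which share their 6 libraries), GC content (-0.03) nor level (-0.11).

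**Figure D5:**
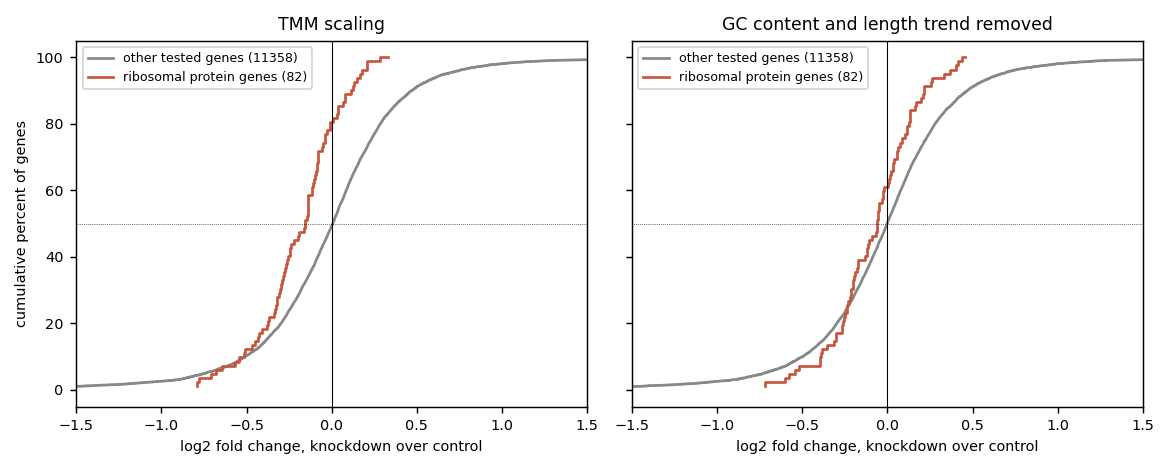
Cumulative percent of genes against log2 fold change (knockdown over control) for the 82 ribosomal protein genes (red) and the other 11358 tested genes (grey), with TMM scaling on the left and with the trend in GC content and length removed on the right. The members' curve is left of the other genes at the dotted line of 50% on the left, with a median of -0.15, and closer to them on the right, with a median of -0.06. With library sizes alone the members' median was 0.22.

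Levels between genes were compared per kilobase of transcript. The median member had 175 CPM per kb, and the interquartile range was 128 to 245. The highest were Rpl23a (463), Rps28 (443.5), Rplp2 (350), Rpl41 (340) and Rpl10 (338 CPM per kb). The lowest of the tested members were Rpl37rt (5.66), Rpl22l1 (22.5), Rps20 (22.8), Rpl7l1 (27.8) and Rpl29 (59.8 CPM per kb). The level of Rps20 was divided by an annotated transcript length of 3706 bases, long for a ribosomal protein mRNA. The order of levels was alike in both groups, with a Spearman rho of 0.931 between control and knockdown over 82 members, and both groups share the same transcript lengths and base composition.

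Paralogs typical of muscle or testis had no count, and the paralogs with counts were the smaller part of their pair. Rpl3l, typical of muscle, and Rpl10l and Rpl39l, typical of the testis, had no count in any sample, as did Rps4l and Rps12l1, which are annotated as processed pseudogenes, and 3 counts would have been 0.220 to 1.49 CPM depending on the library. Rpl22l1 made up 25.9%, 11.9% and 21.8% of its pair with Rpl22 in the control and 11.0%, 14.2% and 14.0% in the knockdown, on levels per length. The value of 11.9% rests on 19 counts of Rpl22l1 in control replicate 2, and it puts that sample inside the knockdown range. Rps27l, a target of p53, made up 15.8%, 16.0% and 20.9% of its pair with Rps27 in the control and 16.7%, 22.2% and 24.7% in the knockdown. Rpl36al made up 27.9%, 32.5% and 31.0% of its pair with Rpl36a in the control and 34.5%, 33.9% and 30.8% in the knockdown. Rpl7l1, which works in ribosome assembly, made up 18.1%, 13.6% and 13.9% of its pair with Rpl7 in the control and 14.3%, 11.2% and 11.5% in the knockdown. In these pairs the groups overlapped. Rps27rt and the annotated pseudogenes Rps3a2, Rps3a3 and Rps12l2 had counts too low to be tested, at mean levels of at most 1.61 CPM in either group.

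Ribosomal protein genes have many processed pseudogenes, and reads from a gene and a near-identical copy cannot be told apart with certainty. Of the values of the 86 members with a count, 84.7% were not whole (tolerance 1e-06), against 14.6% over the 19423 genes with a count. An estimated count divides a read among the transcripts it fits. A sequence search found 263 other rows at least 95% identical over at least 80% of a transcript for 72 of the members. They held 37057 counts beside 490674 on the members themselves. Copies held more counts than the member for Rps2, Rpl3 and Rpl29, and over 50% as many for Rpl34, Rpl35a and Rps19, so the levels of these 6 are uncertain. Adding the copies moved no log2 fold change by more than 0.182, the value for Rps19, took Rpl34 from 0.04 to -0.07 and took Rpl35a from 0.28 to 0.14.

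The rest of the translation machinery was described by lists of genes, beside the 1.22% of all genes called by edgeR's test. No elongation factor was called among 5 tested (median log2 fold change -0.00431, 4 below 0), and Eef2, which moves the ribosome along the mRNA, was 1254 ± 16.7 CPM in the control and 1173 ± 33.5 in the knockdown (SD, n = 3 each). Eef1g, with the smallest p of this list, lay above 0 at 0.25 (adjusted p = 0.560 by edgeR), and its groups overlapped. Of 17 other mRNAs known to carry a TOP tract, 13 lay below 0 and 0 were called (median -0.07), with Eif3l at -0.35 and Pabpc1, the poly(A) binding protein, at -0.34 (-0.41 to -0.22 without 1 sample at a time). Of 7 snoRNA host genes, 5 lay below 0 (median -0.27), led by Snhg5 at -0.93 with an adjusted p of 0.178 by edgeR. Snhg8 followed at -0.49 with overlapping groups (-0.78 to -0.21 without 1 sample at a time). Of 25 initiation factors, 15 lay below 0 and 0 were called (median -0.06), with Eif3c at -0.50 and Eif3j1 at -0.55 (-0.78 to -0.21 without 1 sample at a time). The medians of these 4 lists were positive with library sizes alone, between 0.07 and 0.39, where that of all genes was 0.37. Without knockdown replicate 1 the elongation factor median was 0.13, the snoRNA host median was -0.47 without knockdown replicate 2 and -0.16 without knockdown replicate 3, and the other TOP and initiation factor medians stayed between -0.12 and -0.03 without any 1 sample. At an unadjusted p under 0.05 by edgeR, 0 elongation factors and 1 gene of each of the other lists were lower, beside 6.98% of all genes tested. DESeq2 called 1 gene in these lists, Snhg5, lower in the knockdown, beside 2.12% of the genes it tested.

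Genes that build ribosomes lay on both sides of 0. Of 46 biogenesis factors, 30 lay below 0 and 0 were called (median -0.09), with Nolc1, a nucleolar chaperone, at -0.52 and Nop58, a core box C/D snoRNP protein, at 0.45 (0.29 to 0.57 without 1 sample at a time). Of 15 genes of RNA polymerase I and its factors, which make ribosomal RNA, 5 lay below 0 and 0 were called (median 0.14), with Taf1a at 0.85 and Ubtf at -0.39. At an unadjusted p under 0.05 by edgeR, 1 biogenesis factor was lower, 1 polymerase gene was lower and 1 higher, beside 6.98% lower and 5.45% higher over all genes. DESeq2 called 0 in either list, beside 2.12% of the genes it tested called lower. The median of the biogenesis list turned to 0.24 with library sizes alone, and was -0.26 without knockdown replicate 2 and -0.04 without control replicate 2. That of the polymerase list was 0.04 without control replicate 2 and 0.07 without control replicate 1. Over all genes tested, 49.6% lay below 0 and edgeR called 0.909% lower. The 82 mitochondrial ribosomal protein genes, which serve the separate ribosome of mitochondria, had 77 tested, 50 below 0 and 2 called lower (median -0.09, which became 0.30 with library sizes alone). Their median was -0.02 without knockdown replicate 2, and -0.16 with 58 below 0 and 4 called lower without knockdown replicate 1, where 3.63% of all genes were called lower. A difference between them and the cytosolic set was not tested.

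Of the mTORC1 pathway, which controls TOP mRNAs, 14 of 23 tested genes lay below 0 and 0 were called (median -0.06, and 0.32 with library sizes alone). Eif4ebp1, a translational repressor phosphorylated by mTORC1, was 222, 287 and 266 CPM in the control and 185, 122 and 170.5 CPM in the knockdown. The groups did not overlap, and the log2 fold change of -0.70 had an adjusted p of 0.161 by edgeR, but this gene also lies on chromosome 8, and it was at -0.31 with the chromosome median taken out. Rps6kb1, the S6 kinase, had a log2 fold change of -0.53 and an adjusted p of 0.252 by edgeR, with no overlap. Of 8 genes of the Myc network, which drives ribosomal protein transcription, 5 lay below 0 and 0 were called (median -0.14, and 0.23 with library sizes alone), with Myc at -0.74 and Max at 0.38. Without 1 sample at a time the mTORC1 median ranged from -0.14 (without knockdown replicate 1) to -0.02 (without control replicate 1), and the Myc network median from -0.22 (without control replicate 3) to -0.02 (without control replicate 1). At an unadjusted p under 0.05 by edgeR, 2 mTORC1 genes and 1 Myc network gene were lower and 1 Myc network gene was higher. Over all genes tested, 6.98% were lower and 5.45% higher. DESeq2 called 1 gene lower, Eif4ebp1, beside 2.12% of the genes it tested.

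Most adipocyte genes lay below 0 beside the ribosomal protein genes. Of 13 tested adipocyte markers, 12 lay below 0 (median log2 fold change -0.41, and -0.02 with library sizes alone) and 1 was called lower, Retn, a gene for the hormone resistin on chromosome 8 (log2 fold change -1.67, adjusted p = 0.0967 by edgeR, and -1.28 with an adjusted p of 0.230 once the chromosome median was taken out). Over all genes tested, edgeR called 0.909% lower. At an unadjusted p under 0.05 by edgeR, 3 were lower and 1 higher, beside 6.98% and 5.45% of all genes. DESeq2 called 2 markers lower and 1 higher, beside 285 lower and 145 higher among the 13454 genes it tested. The higher one, Cd36, a fatty acid transporter named here after its values were seen, was 788, 666.5 and 613 CPM in the control and 1299, 900.0 and 1204 CPM in the knockdown. Its groups did not overlap, and the log2 fold change of 0.72 had an adjusted p of 0.183 by edgeR. Without knockdown replicate 1 the list's median was -0.70 with 8 called lower, where 3.63% of all genes were called lower by the same fit, and without knockdown replicate 2 it was -0.22 with 0 called, where 0.291% were. The 14 markers summed to 24493 to 27434 CPM in the control and 13057 to 23463 CPM in the knockdown. The 10 fibroblast markers summed to 8345 to 10301 CPM in the control and 5745 to 11064 CPM in the knockdown. Of 9 tested, 6 lay below 0 and 0 were called by edgeR. In this list 2 were lower at an unadjusted p under 0.05 by edgeR, beside 6.98% of all genes. DESeq2 called 1 lower, beside 2.12% of the genes it tested. Pdgfra and Dlk1, the 2 fibroblast markers with the smallest p, ranged from -1.05 to -0.64 and from -1.05 to -0.49 without 1 sample at a time. The fibroblast median was -0.08, and 0.26 with 3 below 0 and 1 called lower without knockdown replicate 1, in the fit that called 3.63% of all genes lower. The 8 markers of proliferating cells summed to 61.5 to 161 CPM in the control and 49.0 to 130 CPM in the knockdown, and all lay below 0 with 0 called by edgeR or DESeq2 and 0 at an unadjusted p under 0.05, with a median of -0.25. Without control replicate 1 that median was 0.17 with 2 of 8 below 0, and Mki67 was at 0.15, while Mcm5 stayed between -1.70 and -0.37 without any 1 sample. Without knockdown replicate 1 the median of the proliferation markers was -0.01 with 4 below 0, and without knockdown replicate 3 it was -0.80. The order of samples differed between sets, since on the TMM scale knockdown replicate 1 had the lowest sum of ribosomal protein genes and knockdown replicate 2 the lowest sum of adipocyte genes. Macrophage and endothelial markers summed to at most 3.39 CPM in any sample. The part of the state of differentiation in the ribosomal protein values was not tested.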

How the data were processed

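RNA from 3 scrambled control and 3 RBMS1 knockdown cultures of 3T3-L1 adipocytes was sequenced, described as biological replicates. The authors deposited unnormalized estimated counts per gene from Salmon 1.9.0, after trimming (Trim Galore 0.6.7) and alignment to GRCm38 (STAR 2.7.10a). The annotation release is not given in the sources used here.

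After rounding, the quasi-likelihood test of edgeR 4.0.16 under R 4.3.3 was fitted on the condition alone, with its expression filter and TMM factors. Benjamini-Hochberg adjustment ran over all 11440 genes tested, and calls were made at an adjusted p of 0.1 or less. Standard errors were taken from the fold change and its test statistic. DESeq2 1.42.0, limma 3.58.1 and other settings were alternatives. Fits were tested on simulated data. Positions, lengths and GC content came from a GRCm38 gene annotation.

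Members and gene lists were chosen with earlier results of these data known, so no p was computed over members. Named genes were Rbms1, called members, the 8 smallest p in each direction, the 5 highest and lowest levels per length, stalk genes, Rpsa, paralog pairs, members in the low stretches of chromosomes 8 and 3, and called list genes or the 2 with the smallest p. Others named (Rps6, Fau, Adipoq, members with a tract or many copies) were chosen after their values were seen. A few values are not reported here, in the figures either. Of the list symbols, 8 were not found in the table.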

Additional observations from a re-analysis of the deposited data

How the results depend on the processing

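Members called numbered 0 with the earlier quasi-likelihood estimate of edgeR, with library sizes alone, with the replicate block and with chromosome medians removed, and 4 with DESeq2. Genes called over the whole table numbered 430 with DESeq2, 268 with no filter on low counts, 39 with the replicate block and 71 with chromosome medians removed. They numbered 122 with the earlier estimate and 126 with library sizes alone. Called lower were 0.787% of genes with the earlier estimate and 0.367% with library sizes alone. With the replicate block the share called lower was 0.288%, with chromosome medians removed 0.472% and with DESeq2 2.12%. With library sizes alone the members' median was 0.219 with 13 below 0, and 33.3% of calls were lower against 74.3%. With the trend in GC content and length removed it was -0.0574. Without the 100 most abundant other genes the share ratio was 0.904. Relative to the shift of all genes, these directions also turned: Rpsa to -0.0222 (limma-voom), -0.0037 (replicate block) and -0.0206 (chromosome medians), Rpl7, Rpl37a and Rpl22 to -0.0638, -0.0309 and -0.0174 (chromosome medians), and Rplp1 and Rps27l to 0.0841 and 0.0336 (GC content and length). Rpl34 turned to -0.0659 with copies added. Against the total count, with library sizes alone, most members turned above 0. The cause was not tested.

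Leaving out 1 sample at a time gave 12 to 696 genes and 0 to 1 members called, a members' median of -0.224 to -0.107, 58 to 72 members below 0, a share ratio of 1.02 to 1.24, and Rbms1 at -0.918 to -0.518. Ranges that crossed 0 were Rpl37rt -0.261 to 0.588, Rplp0 -0.244 to 0.056, Rplp1 -0.336 to 0.294, Rpsa -0.142 to 0.11, Rpl22 -0.103 to 0.125, Rps27l -0.254 to 0.101, Rpl37a -0.0386 to 0.349, Rps20 -0.0282 to 0.244 and Mki67 -1.52 to 0.153. Where a group kept 2 samples, the pooled dispersion was used.

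Replicate numbers did not pair the samples: the correlations of same-numbered samples were -0.144, 0.0785 and -0.0284, so the replicate block, with 39 genes called, is not read as a weaker effect. The alternatives of the earlier estimate and the addition of near-identical copies, were chosen after seeing the data. Depth limits the rare paralogs most, since 3 counts were 1.49 CPM in control replicate 2.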
